A study of Mus musculus with 6 samples.

Results

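In mouse neural stem cells (NSCs), 1382 regions away from protein-coding genes carried a called H3K9me3 peak in both control libraries and in neither library of cells with reduced PHF8. They were chosen by these measured peak calls. The peaks of the 4 libraries on chromosomes 1 to 19 were pooled, and peaks that overlapped or touched were merged into 70705 regions. Of these, 37026 overlapped no protein-coding gene and lay more than 3 kb from every protein-coding start site, and the 1382 lost regions are 3.73% of them. A lost region means here a region with a peak of both shCTR libraries and of neither shPHF8 library, and a gained region means the opposite. The NSCs came from the cerebral cortex of C57BL/6J mouse embryos. They were infected with lentivirus that carried either a scrambled control shRNA (shCTR, 2 ChIP libraries) or an shRNA against PHF8 (shPHF8, 2 ChIP libraries), and infected cells were selected with puromycin. Both groups were grown with EGF and FGF, and an shRNA lowers PHF8 without altering its gene. The inputs of each group were not used here. Neither the knockdown nor neural stem cell markers can be checked in lists of peak positions.

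H3K9me3 is the trimethylated form of lysine 9 of histone H3, a mark of condensed and silent chromatin that is laid down over repeats, imprinted loci and gene deserts and is bound by HP1 proteins. PHF8 is a histone demethylase of the KDM7 family that binds H3K4me3 at promoters and removes methyl groups from H3K9me2, H3K9me1 and H4K20me1. Trimethylated H3K9 is not among its known direct substrates. Outside protein-coding genes the mark lies over introns and exons of long noncoding RNAs (lncRNAs), over pseudogenes and over intergenic DNA that can hold enhancers.

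The sequence at the core of the lost regions is shown first. The 200 bases printed for each lie at the centre of the stretch that both shCTR libraries covered, on the plus strand of GRCm38 (mm10), with CpG dinucleotides, the sites of DNA methylation, in capitals. The first 4 belong to the lost regions with the most bases covered in both shCTR libraries, and the next 3 to lost regions over lncRNAs of neural or microRNA loci.
Upstream of Dlk1, chr12:109436501-109436700: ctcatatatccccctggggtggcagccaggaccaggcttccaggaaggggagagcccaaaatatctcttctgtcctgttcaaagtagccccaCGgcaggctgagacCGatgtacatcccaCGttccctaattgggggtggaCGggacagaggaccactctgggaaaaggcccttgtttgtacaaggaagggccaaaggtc
Upstream of 3110018I06Rik, chr12:107119101-107119300: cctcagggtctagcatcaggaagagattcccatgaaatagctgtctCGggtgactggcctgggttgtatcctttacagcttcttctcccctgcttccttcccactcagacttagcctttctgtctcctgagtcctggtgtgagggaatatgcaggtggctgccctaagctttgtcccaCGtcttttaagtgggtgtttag
Within Pvt1, chr15:62242901-62243100: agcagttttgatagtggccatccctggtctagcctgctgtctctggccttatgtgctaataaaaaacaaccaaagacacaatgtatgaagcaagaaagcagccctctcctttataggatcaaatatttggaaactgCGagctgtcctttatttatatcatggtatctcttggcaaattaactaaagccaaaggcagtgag
Downstream of Cxxc4, chr3:134394401-134394600: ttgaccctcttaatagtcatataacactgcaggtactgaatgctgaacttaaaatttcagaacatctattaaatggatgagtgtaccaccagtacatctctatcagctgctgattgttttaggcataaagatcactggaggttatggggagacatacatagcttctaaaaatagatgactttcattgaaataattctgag
Within Sox2ot, chr3:34573501-34573700: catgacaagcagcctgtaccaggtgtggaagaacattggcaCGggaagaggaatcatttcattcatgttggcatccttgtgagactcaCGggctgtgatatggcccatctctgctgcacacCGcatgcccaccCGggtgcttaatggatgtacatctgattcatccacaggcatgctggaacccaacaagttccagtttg
Within Sox1ot, chr8:12431401-12431600: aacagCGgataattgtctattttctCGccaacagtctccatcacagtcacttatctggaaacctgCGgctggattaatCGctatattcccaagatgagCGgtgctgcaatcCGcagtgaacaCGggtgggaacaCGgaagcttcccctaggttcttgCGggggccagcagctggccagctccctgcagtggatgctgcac
Within Mir670hg, chr2:94241001-94241200: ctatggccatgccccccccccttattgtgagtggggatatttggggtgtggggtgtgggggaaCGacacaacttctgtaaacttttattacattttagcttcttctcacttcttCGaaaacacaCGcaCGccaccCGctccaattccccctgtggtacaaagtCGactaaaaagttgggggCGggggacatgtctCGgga

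These cores were mostly free of marked repeats and differed in CpG content. The core near Cxxc4 held 0 CpG and the core in Pvt1 held 1, whereas the core in Mir670hg held 8 and the core in Sox1ot held 9. The cores of Dlk1 and Sox2ot held 4 each. None of the bases printed for Dlk1, Pvt1, Cxxc4, Sox2ot and Sox1ot was soft-masked, that is, marked as repeat or low-complexity DNA in the genome sequence. Soft-masked bases numbered 25 of 200 near 3110018I06Rik and 68 of 200 in Mir670hg.

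Lost regions lay over 6 annotated microRNA genes, 5 of which had a hairpin in RefSeq (GRCm38.p6). Their 10 mature microRNAs had 10 different seeds, so none shared a seed. The share of all regions that lay over microRNA genes was not computed, so these genes are not shown to set lost regions apart. Shown here, with the seed (bases 2 to 8) in capitals, are arms of microRNAs from 3 of the lost regions, of which miR-129 is known for its abundance in brain.
mmu-miR-129-5p: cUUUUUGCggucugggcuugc
mmu-miR-129b-5p: gCUUUUUGggguaagggcuucc
mmu-miR-365-3p: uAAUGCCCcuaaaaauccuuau
mmu-miR-674-5p: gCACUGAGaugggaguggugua

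The 4 peak lists differed in size between and within conditions, and the lists give no read depth, height or score. On these chromosomes shCTR replicates 1 and 2 had 53039 and 53852 peaks that covered 156 and 159 Mb, and shPHF8 replicates 1 and 2 had 44205 and 55344 peaks that covered 219 and 197 Mb, a ratio of condition means of 1.32. Peaks had a median width of 2400 bp in each shCTR library, while shPHF8 replicate 1 had 4200 bp and replicate 2 had 2800 bp. A region without a peak is one that was not called, and a weaker signal below the threshold cannot be told apart from none. Nothing in the sources used here says that the libraries of a condition came from separate cultures, so any p-value measures only the spread between these libraries. No exact permutation test of 2 libraries against 2 can go below p = 0.333.

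Loss of a called peak was rarer away from protein-coding genes than at them. Over all merged regions 5.00% were lost, and at protein-coding genes or within 3 kb of their start sites 6.40% were. Outside protein-coding genes 1824 regions were gained, which is 4.93%, and at protein-coding genes 3.58% were gained. So away from protein-coding genes gained regions outnumbered lost ones, and at protein-coding genes lost regions outnumbered gained ones, a description with no test because these calls define the sets. The order did not hold under every setting. With the widest peaks of each library taken up to an equal covered length, 4815 regions outside protein-coding genes were lost and 585 gained. This setting takes narrow peaks mainly out of the shPHF8 lists, which covered more, and so favours lost calls. How much this shapes the counts was not tested. Lost regions also outnumbered gained ones without shCTR replicate 1 (4297 and 3434) and without shCTR replicate 2 (4137 and 3376). Gained regions outnumbered lost ones without shPHF8 replicate 1 (6932 and 2331) and without shPHF8 replicate 2 (3781 and 3062). Without a library, 1 peak is enough for its own condition while the other condition still needs a peak in both libraries. Leaving out a library therefore cannot decide the order.

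**Figure D1:**
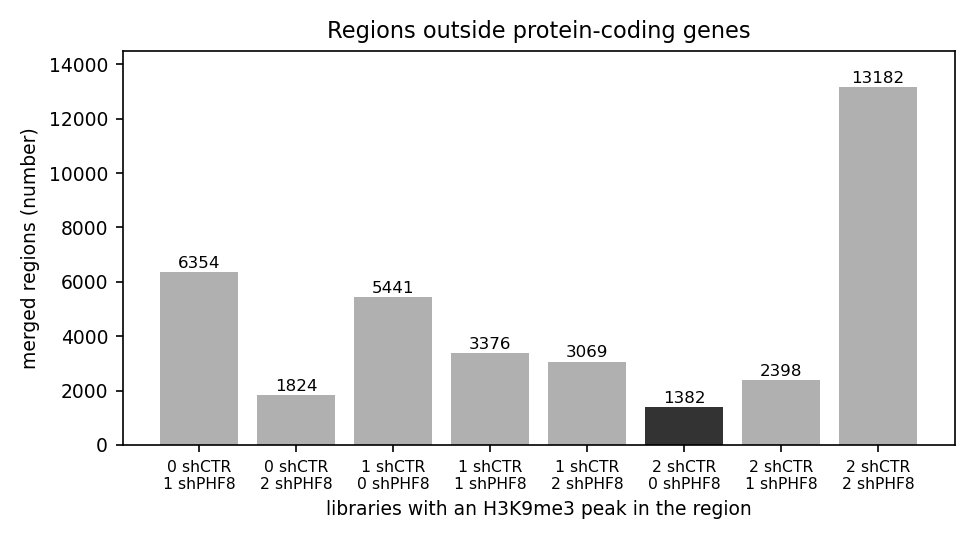
Number of merged regions outside protein-coding genes by how many shCTR and how many shPHF8 libraries had an H3K9me3 peak there. The 1382 lost regions (dark bar) stand beside 5441 regions with a peak in 1 shCTR library alone and 2398 with peaks in both shCTR libraries and 1 shPHF8 library.

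Lost regions were a small class beside regions on which the libraries of 1 condition disagreed. Another 2398 regions had peaks in both shCTR libraries and in 1 shPHF8 library, 5441 had a peak in 1 shCTR library alone, and 6354 in 1 shPHF8 library alone. Peaks of all 4 libraries overlapped 13182 regions, called shared here. Regions found in a single library numbered 2645 and 2796 for shCTR replicates 1 and 2, 1808 for shPHF8 replicate 1 and 4546 for shPHF8 replicate 2. Each single-library class was therefore larger than the lost class. The number of lost regions rested on every library, since a call in fewer libraries was then enough. Leaving out shCTR replicate 1 or 2 gave 4297 or 4137 lost regions, and leaving out shPHF8 replicate 1 or 2 gave 2331 or 3062.

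Lost regions were narrower than shared ones and wider than those with a peak in 1 shCTR library alone. Their width had a median of 2600 bp and ranged from 200 to 10600 bp, against a median of 3600 bp over all regions outside protein-coding genes and 5600 bp for the shared ones. It was 1800 bp for regions with 1 shCTR peak alone and 3200 bp for those with both shCTR peaks and 1 shPHF8 peak. In all they spanned 3735400 bp. Covered bases had a median of 2000 in each shCTR library, and 1363 of the 1382 regions held 1 peak in each. Neither shCTR library led, with more covered bases in replicate 1 in 609 regions, more in replicate 2 in 648 and equal numbers in 125. Bases under peaks of both replicates made up a median of 60.0% of the region, and in 5 regions the peaks of the replicates only touched. Only 59 lost regions were 5000 bp or wider.

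The lost region that both shCTR libraries covered most lay upstream of Dlk1, on chromosome 12 from 109432401 to 109440800. Dlk1 is an imprinted gene for a transmembrane ligand related to those of Notch, and its nearest start site was 12023 bp away. Peaks covered 8400 and 8000 of the 8400 bases in shCTR replicates 1 and 2, and 0 in both shPHF8 replicates. Its 50 kb flanks lie outside the bases by which it was chosen. They had 61400 and 66000 covered bases in shCTR, against 48600 and 41400 in shPHF8, so both shPHF8 libraries lay below both shCTR libraries there too. GC content was 52.1% and only 14.6% of its bases were soft-masked.

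The next was intergenic, 361432 bp upstream of 3110018I06Rik on the same chromosome, with 6600 and 8600 covered bases in shCTR replicates 1 and 2. The third lay within Pvt1, an lncRNA gene beside the oncogene Myc, from 62238601 to 62246000 on chromosome 15, and overlapped an exon. It had 7200 and 5800 covered bases in shCTR. The fourth, 151011 bp downstream of Cxxc4, a gene for an inhibitor of Wnt signalling, had 5400 and 6600. All of these were at 0 in both shPHF8 libraries, as the choice required.

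Of the 12 lost regions ranked this way, 8 overlapped no annotated gene of any kind. Among the neighbours of the 12 were Mpp6, whose product is a membrane scaffold protein, Sec16b, a factor of endoplasmic reticulum exit sites, Calca, the gene of calcitonin and CGRP, and Spon1, which encodes the axon guidance protein F-spondin. The widest lost region of all, 10600 bp long, lay 12244 bp upstream of Calca on chromosome 7, and there shCTR replicate 2 (9600 covered bases) exceeded replicate 1 (4400). The region near Spon1 was even in both, with 4200 and 4400. The region near Gm10358 was the only one of the 12 with more than 50% of soft-masked bases (58.4%).

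**Figure D2:**
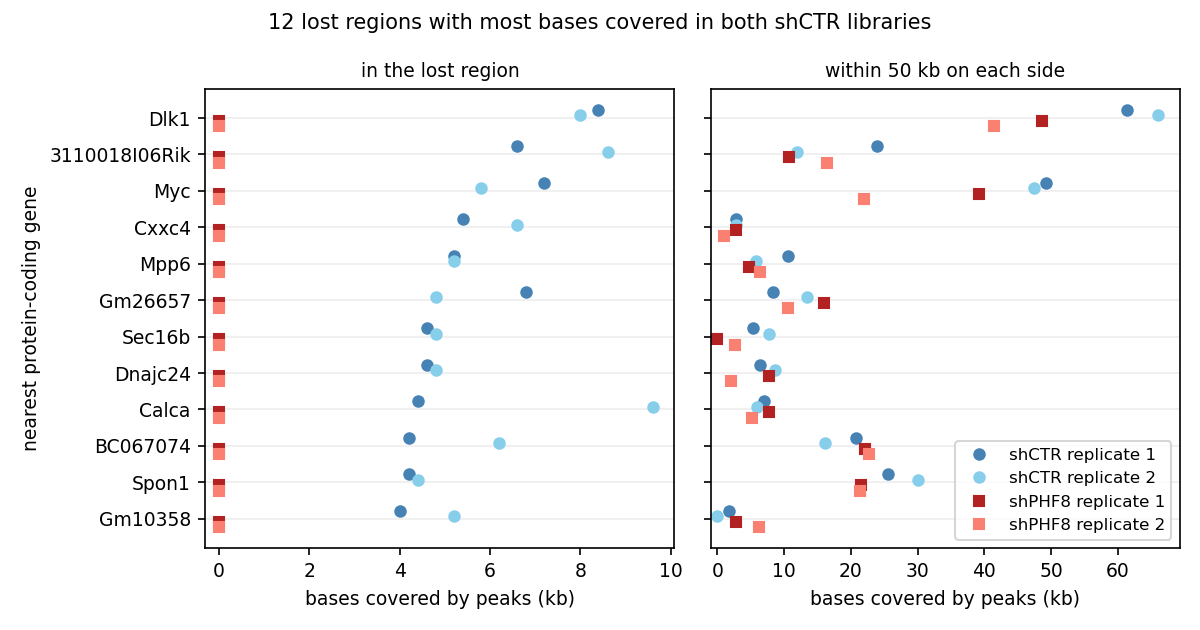
Bases covered by peaks, in kb, for the 12 lost regions with the most bases covered in both shCTR libraries, named by the nearest protein-coding gene, in the region itself (left) and within 50 kb on each side (right), with 1 point per library. In the region all shPHF8 points are at 0 by choice, and on the right both shPHF8 points lie below both shCTR points for Dlk1, Myc, Sec16b and Spon1 but not for the other genes.

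Around the lost regions, H3K9me3 was not lost as a rule. Within 50 kb on each side, with the regions left out and each base counted once, peaks covered 14.2 and 14.9 Mb in shCTR replicates 1 and 2, against 18.3 and 15.9 Mb in shPHF8, of 123 Mb. The ratio of shPHF8 to shCTR means was 1.18 (p = 0.333 in the exact two-sided permutation test, the smallest possible), with both shPHF8 libraries above both shCTR libraries. The same ratio was 1.53 around gained regions and 1.35 around shared ones. After scaling to equal totals per library it was 0.894 around the lost regions, the opposite direction. The difference between these ratios was not tested.

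Region by region, the flanks leaned further towards shCTR around lost regions than elsewhere. Both shPHF8 libraries had fewer covered flank bases than both shCTR libraries around 234 lost regions (16.9%), where all regions outside protein-coding genes gave 7.00%, gained ones 3.12% and shared ones 6.74%. Both had more around 403 lost regions (29.2%), against 44.3% of all such regions, 54.7% of gained and 47.7% of shared ones. Within 10 kb the counts around lost regions were 186 lower and 176 higher. The 10 kb counts were not made over all regions, so whether they set lost regions apart is not known. No peak of any library was present in the 50 kb flanks of 72 lost regions (5.21%), against 6.29% of all regions outside protein-coding genes. Lost regions cluster in part, so that flanks hold other lost regions. With the bases of all lost regions at any location left out, the count with lower flanks was 136 (9.84%) for lost regions and 3.86% for all regions outside protein-coding genes. Leaving them out takes covered bases from the shCTR libraries only, by choice of the regions. Without shCTR replicate 1 the count was 384 (27.8%, against 14.4% of all regions), and without shPHF8 replicate 1 it was 422 (30.5%, against 16.7%). After scaling to equal totals, 35.9% of lost regions and 20.9% of all regions outside protein-coding genes had lower flanks, and 12.8 and 24.3% had higher ones. Without shPHF8 replicate 2, 673 lost regions (48.7%) had higher flanks, against 61.5% of all.

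**Figure D3:**
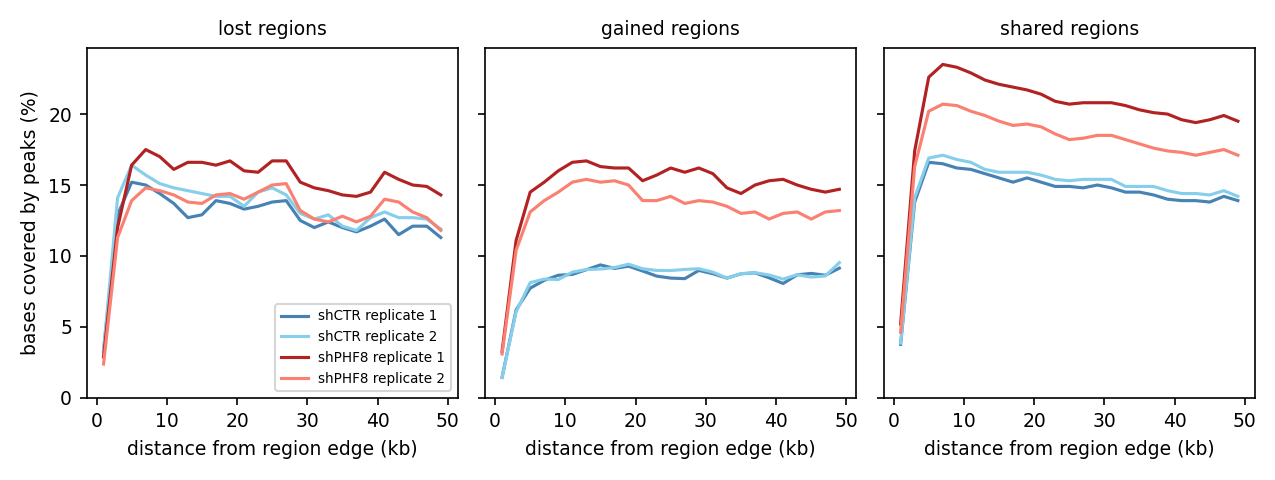
Share of bases covered by peaks, in percent, against the distance from the edge of lost, gained and shared regions outside protein-coding genes, in 2 kb steps, with 1 line per library. Beside lost regions both shPHF8 lines lie below both shCTR lines up to 4 kb and above them in 13 of the 25 steps, whereas beside gained and shared regions they lie above in all 25. The choice of regions shapes the steps next to the edge. Values are not scaled for the larger covered length of the shPHF8 lists.

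In covered bases not scaled for list size, the order of the conditions changed with distance. The shPHF8 lists covered 1.32 times as much in all, and the steps were not computed after scaling. Over the whole 50 kb flanks of lost regions, scaling to equal totals turned the ratio to 0.894, so the change of order may not hold after scaling. In the first 2 of 25 steps, up to 4 kb from the edge of lost regions, both shPHF8 libraries lay below both shCTR libraries. The choice shapes the steps next to the edge. A shPHF8 peak that reaches a region takes it out of the lost set, while a shCTR peak that touches it becomes part of it. How much of the difference there comes from the choice was not tested. Within 2 kb peaks covered 3.30% of bases in both shCTR libraries, against 2.88 and 2.38% in shPHF8. From 4 to 6 kb beyond the edge of lost regions, peaks covered 15.2 and 16.4% of bases in shCTR replicates 1 and 2, against 16.4 and 13.9% in shPHF8, and the conditions overlapped. From 48 to 50 kb the values were 11.3 and 11.9% in shCTR, against 14.3 and 11.8% in shPHF8, and they overlapped again. Between these, both shPHF8 libraries lay above both shCTR libraries in 13 steps, all of them from 16 kb on, as from 40 to 42 kb (12.6 and 13.1% in shCTR, against 15.9 and 14.0%). Over the 25 steps the conditions overlapped in 10. Beside gained regions at 4 to 6 kb they were 7.73 and 8.12% in shCTR, against 14.5 and 13.1% in shPHF8, and beside gained and shared regions both shPHF8 libraries were above in all 25 steps. A shPHF8 peak lay within 1 kb of 113 lost regions (8.18%) and within 5 kb of 587 (42.5%). For 125 regions (9.04%) no shPHF8 peak lay within 50 kb. These counts were not made over all regions. For shPHF8 replicates 1 and 2 taken singly, a peak outside the region lay within 10 kb of 51.1 and 55.3% of lost regions. Over all regions outside protein-coding genes these shares were similar, 52.5 and 56.7%. The median distance to the nearest other peak was 7000 and 6500 bp for the shCTR libraries, against 9600 and 8400 bp for the shPHF8 libraries. Over all regions outside protein-coding genes it was 9400 and 9200 bp for shCTR and 9200 and 8000 bp for shPHF8. Beside shared regions it was 6400 bp for both shCTR libraries and 6200 and 5600 bp for shPHF8. So the shCTR distances beside lost regions were near those beside shared regions. The shPHF8 distances were longer than beside shared regions and near those of all regions.

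Of the lost regions, 297 (21.5%, 95% Wilson interval 19.4 to 23.7%) overlapped an annotated gene that does not code for protein, close to the 20.8% of all regions outside protein-coding genes. Such intervals cover counting error over regions only. The genes they overlapped differed in kind. An lncRNA was overlapped by 245 (17.7%) against 15.1% of all, and a pseudogene by 37 (2.68%, 1.95 to 3.67%) against 5.10% of all, 6.52% of gained and 6.40% of shared regions. Regions with both shCTR peaks and 1 shPHF8 peak (3.21%) and regions with 1 shCTR peak alone (2.90%) also had few pseudogenes. Small RNA genes were overlapped by 17 lost regions (1.23%, 0.769 to 1.96%), close to 0.991% of all, 1.21% of gained and 1.53% of shared regions.

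Within lncRNA genes the lost regions lay mostly in introns. An exon was touched by 86 of the 245 (35.1%), against 45.7% of all such regions over lncRNAs and 58.5% of the shared ones. The share was 30.5% for regions with 1 shCTR peak alone and 41.9% for those with both shCTR peaks and 1 shPHF8 peak. A start site of a noncoding gene lay under 73 lost regions (5.28%), against 7.92% of all regions and 11.4% of the shared ones. Width moved with these shares, since shared regions had a median width of 5600 bp and lost ones 2600 bp, and its part in the differences was not tested.

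Pvt1 held the largest number of lost regions of any noncoding gene together with Gm2164, with 5 each. Across the Pvt1 gene (ENSMUSG00000097039.8, chromosome 15 from 62037986 to 62378096, plus strand), 28 regions were merged, of which 5 were lost, 0 gained and 12 shared. The whole gene had 153000 and 154415 covered bases in shCTR replicates 1 and 2, against 108415 and 83000 in shPHF8. With the bases of the lost regions left out it had 135000 and 136415 in shCTR, still above both shPHF8 values. The 5 lost regions measured from 3000 to 7400 bp and stood between regions that kept the mark.

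**Figure D4:**
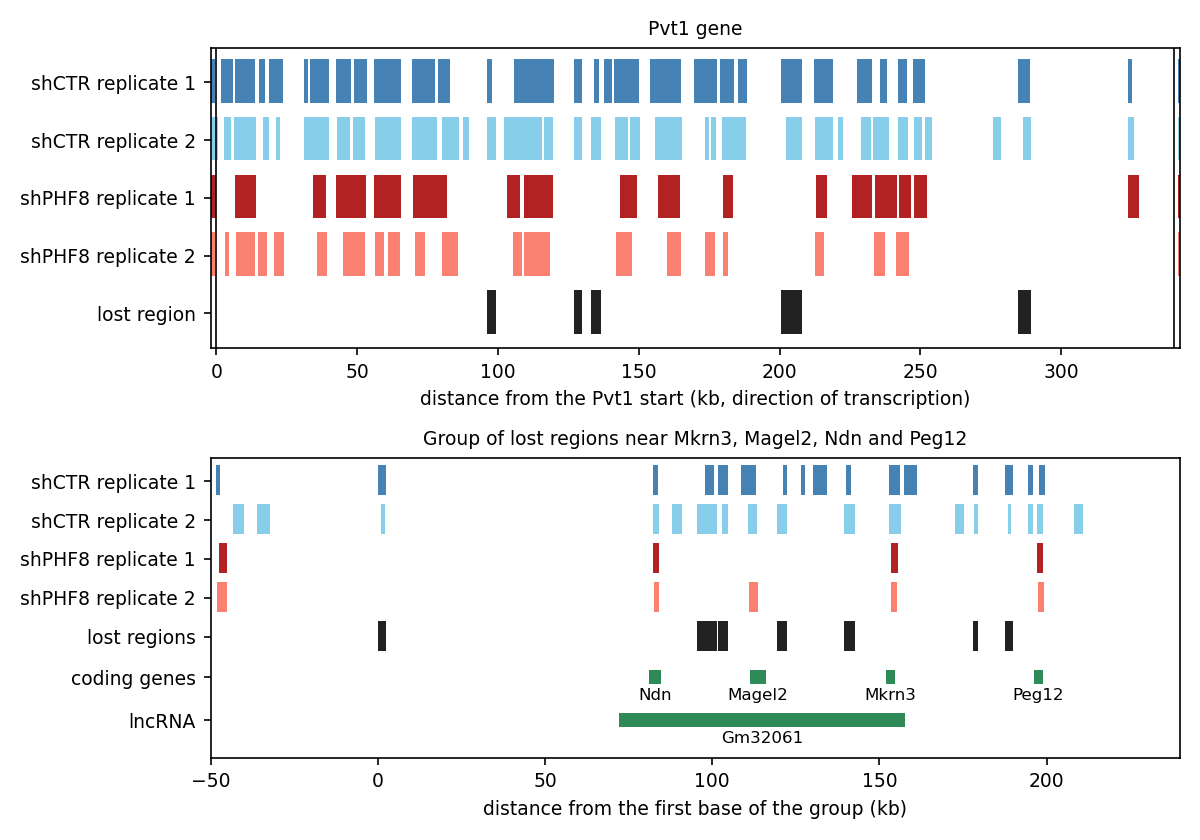
H3K9me3 peaks of each library over Pvt1 (top, distance from the gene's start in kb, black lines at its ends) and over a group of 7 lost regions near Ndn, Magel2, Mkrn3 and Peg12 (bottom, distance from the first base of the group in kb, genes in green), with lost regions in black. At Pvt1 lost regions lie among peaks kept in shPHF8, and in the lower map few shPHF8 peaks remain, those over Ndn, Mkrn3 and Peg12 being present in all 4 libraries.

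Lost regions over other lncRNAs of neural loci were single. In Sox2ot, which contains the stem cell gene Sox2, 1 of 31 regions was lost, from 34571801 to 34576600 on chromosome 3, with 3600 and 4800 covered bases in shCTR replicates 1 and 2. The whole gene had 67200 and 76000 covered bases in shCTR, against 102800 and 83400 in shPHF8, so both shPHF8 libraries lay above both shCTR libraries, the opposite order from Pvt1. In Sox1ot, beside the neural progenitor gene Sox1, the lost region had 2600 and 1000 covered bases in shCTR, and the whole gene had 10230 and 12000 in shCTR, against 10400 and 8200 in shPHF8, which overlap. Neat1, the lncRNA scaffold of nuclear paraspeckles, had 2200 and 2000 covered bases in shCTR in a lost region within its first kilobases. Elsewhere in Neat1, shPHF8 replicate 2 had 5600 covered bases and the other libraries had 0.

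The lost region over the miR-129 locus, whose core and mature sequences are printed above, measured 6400 bp with 3000 and 6400 covered bases in shCTR. It covered Mir129-2 and Mir129b inside their host gene Mir670hg on chromosome 2, and with 33.3 CpG per kb it was richer in CpG than the median lost region (8.33 per kb). The lost region at Mir365-2 on chromosome 11 had 2400 and 4800 covered bases, and that at Mir674 on chromosome 2 had 2000 and 2600. A shPHF8 peak lay 1200 bp from the region at Mir365-2 and 30200 bp from that at the miR-129 locus.

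Other lncRNA genes with several lost regions are mostly known by number alone. Besides Pvt1 and Gm2164 they were Gm32061 with 4, and 4930511M06Rik, AC141639.4, Gm26871, Gm43122, Gm8239 and Gm9750 with 3 each, of 283 noncoding genes under lost regions. None of these 9 genes held a gained region, but each held only 4 to 28 regions, and 4.93% of all regions outside protein-coding genes were gained. They were picked for their lost regions, so their values without lost regions were compared, which takes covered bases from shCTR only. With those bases left out, Gm32061 had 15245 and 11000 covered bases in shCTR, against 3800 and 6000 in shPHF8, and 4930511M06Rik had 24600 and 25600 in shCTR, against 15000 and 13200 in shPHF8. In these, as in Pvt1, both shPHF8 libraries remained lower. The same held in Gm26871 (4400 and 10200 in shCTR, against 3200 and 3000) and Gm8239 (5487 and 6087, against 87 and 4600). In Gm43122 and Gm9750 the conditions overlapped. Other noncoding genes were not compared in this way. In Gm2164 the values overlapped, with 23000 and 35677 in shCTR, against 26800 and 13800 in shPHF8, and in AC141639.4 both shPHF8 libraries were higher, with 20800 and 23800 against 16200 and 10200.

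Most lost regions stood alone. No other lost region outside protein-coding genes lay within 100 kb of 958 of them (69.3%), while 45 (3.26%) had 3 or more. The 3 densest groups had 7 lost regions each, in spans of 178600, 185000 and 189800 bp. They lay beside Gfra2 on chromosome 14, around 3100002H09Rik and beside Pou3f1 on chromosome 4, and around the imprinted genes Ndn, Magel2, Mkrn3 and Peg12 on chromosome 7.

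The group on chromosome 7, from 62265601 to 62455400, lay in the imprinted domain that corresponds to the human Prader-Willi syndrome region. Necdin (Ndn) and Magel2 are MAGE family genes, Mkrn3 encodes a RING finger protein and Peg12 a protein related to FRAT, and all are expressed from the paternal allele. The 7 lost regions lay between or beside these genes, 4 of them in the lncRNA gene Gm32061, and the one with most covered bases, at 62361001 to 62367000, had 2800 and 6000 in shCTR. Of 15 regions in the span, 7 were lost, 0 gained and 2 shared. In the span and 50 kb on each side, without lost regions, peaks covered 21600 and 25400 bases in shCTR, against 8200 and 10800 in shPHF8. Ndn, Peg12 and Mkrn3 themselves kept a peak in all libraries. Over Ndn peaks covered 1600 and 1800 bases in shCTR, against 1800 and 1600 in shPHF8, over Peg12 1110 and 1710 in shCTR, against 1710 and 1510 in shPHF8, and over Mkrn3 1739 in both shCTR and 1139 in both shPHF8 libraries. Magel2 was covered in both shCTR libraries and shPHF8 replicate 2 but was at 0 in shPHF8 replicate 1. The lists do not tell parental alleles apart.

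In the other dense groups the conditions overlapped once lost regions were left out. Lost regions hold no shPHF8 bases by choice, so leaving them out lowers the shCTR values only. Gfra2, the receptor gene for neurturin, was the nearest protein-coding gene for all 7 regions of the chromosome 14 group, from 71045201 to 71223800. With lost regions left out, that span had 13200 and 21800 covered bases in shCTR, against 15000 and 16600 in shPHF8, and with 50 kb on each side it had 15200 and 39800, against 19200 and 18400. The group on chromosome 4, from 124458201 to 124643200, ran up to 13607 bp from a start site of Pou3f1, a POU-domain transcription factor of neural progenitors and Schwann cells, and 5 of its lost regions lay in Gm2164. The gene 3100002H09Rik lay inside this group and was the nearest protein-coding gene for most of its lost regions, and Pou3f1 was nearest for the others. The span of the group without lost regions had 32600 and 51800 covered bases in shCTR, against 44800 and 26400 in shPHF8. With 50 kb on each side the values were 55400 and 81400, against 68200 and 57000.

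The lost regions lay about as far from protein-coding genes as the other regions outside them, and near many different ones. The distance to the nearest protein-coding start site had a median of 62538 bp and reached 1382683 bp, and 539 regions (39.0%) lay more than 100 kb away. Over all regions outside protein-coding genes the median was 62406 bp and 38.0% lay more than 100 kb away. They had 1080 different nearest genes, of which 887 were nearest to a single lost region. Gfra2 was nearest to 12, Myc and the glial and progenitor factor Sox9 to 8 each, and Mycn, Foxa2, Cbln1 and Gas1 to 4 each. In all, 20 genes were nearest to 4 or more lost regions. Those named here were not chosen by count alone, and Cdh4 and Tbl1xr1, for example, had 5 each. The counts were seen before the genes were named, so they get no test. Of the regions nearest to Gfra2, 12 of 45 (26.7%) were lost and 0 gained. For Foxa2, a forkhead factor of the floor plate, 4 of 9 were lost, 0 gained and 0 shared. For Sox9 it was 8 of 94 (8.51%), with 3 gained.

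Neural and metabolic genes were neighbours of lost regions about as often as of other regions. A gene of the list of 50 neurogenesis and synapse genes was nearest to 10 lost regions (0.724%), against 0.797% of all regions outside protein-coding genes. Among these genes were Bcl11b, Fezf2, Hes1 and Sox2. The region near Fezf2, a factor of deep-layer cortical neurons, lay 16244 bp from its start site with 3600 and 2600 covered bases in shCTR. Of 40 metabolic genes, of amino acids and one-carbon units, Got2, Psat1 and Slc7a11 were nearest to 6 lost regions in all (0.434%, against 0.362% of all). Psat1 encodes an enzyme of serine biosynthesis. The 2 lost regions to which it was nearest lay 183112 bp from its start site, with 1400 and 3200 covered bases in shCTR, and 247512 bp from it, with 2000 and 1800.

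Zfp, protocadherin and vomeronasal receptor genes were nearest to a smaller share of lost than of all regions, and olfactory receptor genes to a similar share. These shares rest on few lost regions. Zfp zinc finger genes, a family with known H3K9me3 domains, were nearest to 22 lost regions (1.59%) against 2.41% of all and 2.89% of shared regions. Protocadherin genes were nearest to 2 (0.145% against 0.294%), vomeronasal receptor genes to 5 (0.362% against 0.751%) and olfactory receptor genes to 16 (1.16% against 1.06%). Among 34 annotated lncRNAs of the noncoding list, Neat1, Pvt1, Sox1ot and Sox2ot were overlapped by 8 lost regions (0.579%, against 0.340% of all regions), 5 of them in Pvt1. No test was made on these shares.

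Repeats took up less of the lost regions than of other regions of the same location. The median soft-masked share was 27.8%, against 31.0% in gained, 30.4% in shared and 30.6% in all regions outside protein-coding genes. It was 29.5% in regions with 1 shCTR peak alone and 29.6% in those with both shCTR peaks and 1 shPHF8 peak. These sets also lay below all regions and were not split by width. The share in lost regions was lower than in gained, shared and all regions at each width. In regions of 4 kb or more it was 22.7% for 184 lost regions, 29.5% for gained, 30.1% for shared and 29.5% for all such regions, and between 3 and 4 kb it was 24.6% for lost and 30.2% for all. The class of repeat and the share of reads that map to several places were not measured. Under the 10 other settings in which it was computed for both sets, the median was again lower in lost than in all regions, by least without shCTR replicate 2 (30.0 and 30.7%) and with peaks within 5 kb merged (31.4 and 32.5%).

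**Figure D5:**
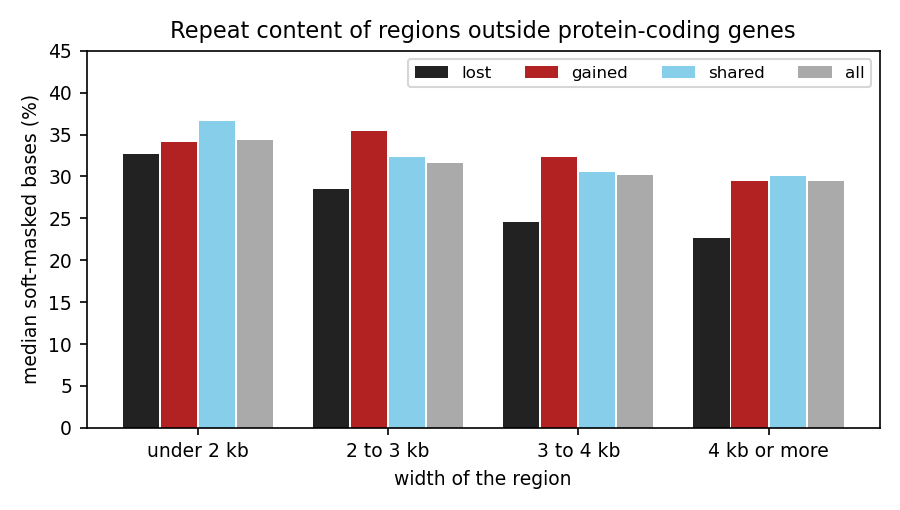
Median share of soft-masked bases, in percent, of lost, gained, shared and all regions outside protein-coding genes, by the width of the region. Lost regions have the lowest median in each width class, from 32.7% below 2 kb to 22.7% at 4 kb or more.

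Base composition hardly set them apart. GC content had a median of 44.3% in lost, 44.2% in gained, 44.6% in shared and 44.3% in all regions outside protein-coding genes, and CpG dinucleotides numbered 8.33 per kb in lost regions and 8.81 in all. The hexamer TGCCGC, which ZFP57 binds when it is methylated and which recruits H3K9 methylation at imprinted loci, was searched on both strands of the central 1000 bp. It was present in 108 lost regions (7.81%), and in 7.62% of gained, 7.69% of shared and 7.48% of all regions. A match is a string of letters and not a bound site.

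Every autosome had lost regions. Their share of the regions outside protein-coding genes ran from 2.71% on chromosome 17 to 5.01% on chromosome 11. Chromosomes 2 and 11 had more lost than gained regions (120 against 93, and 96 against 88), and the other 17 chromosomes had more gained ones.

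Distance to a start site was one of the limits that chose the regions. Just beyond 3 kb lay a region 3013 bp from a start site of Tacc1, with 1400 and 3000 covered bases in shCTR replicates 1 and 2, and one 3061 bp from Id2, an inhibitor of neural differentiation factors, with 2400 and 2000. Next came one 3116 bp from Card19, with 1400 and 3600. Just within the limit, and so not included, were regions 2967 bp from Aldoart1 (1800 and 2000), 2955 bp from Zfp568 (2400 in both) and 2935 bp from Klk8 (1600 in both), so the values overlapped across it.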

How the data were processed

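H3K9me3 ChIP-seq of NSCs was used as deposited. The authors had aligned their single-end reads to mm10 and had called broad peaks with SICER2. Their methods name SOAPaligner/SOAP2 and the submitters' notes name Bowtie2 2.3.5.1 and SAMtools 1.9, so the aligner of these lists is uncertain, and the SICER2 settings and use of input are not given in the sources used here. The methods list an H3K9me3 antibody but describe immunoprecipitation for another mark. The deposited values are positions of peaks per library in 200 bp windows, with no count, signal or p-value. An end was read as its last base, so 1 was added, and positions are printed 1-based.

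Regions were merged, located and compared with Python 3.11.15, numpy 2.4.6, pandas 2.3.3 and scipy 1.17.1, using GENCODE M21 and transcript start sites on GRCm38, and the GRCm38.p6 sequence. Merging and coverage were checked on simulated peaks. The lost regions and gene lists were chosen with earlier results of these data known. Named were the 12 lost regions with the largest smaller covered length in shCTR, those over listed noncoding RNAs or microRNA genes, up to 3 per neighbour list (not all are printed), the 3 densest groups and those next to the 3 kb limit. Sequences of 3 regions over noncoding RNAs were added to those of the first 4. Sums in flanks were compared by an exact permutation test over libraries. The alternatives were coverage of at least 50%, other merging and distances, wide peaks only, equal numbers of peaks, genes of any biotype, chromosomes X and Y, other flanks and scaling, the replicate block and each library left out. Added after seeing the data were gene-level start sites, an equal covered length, and flanks without any lost region.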

Additional observations from a re-analysis of the deposited data

How the results depend on the processing

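A region counts as lost or gained by a call in every library, so leaving out a library loosens the rule. Leaving out one library at a time gave 2331 to 4297 lost and 3376 to 6932 gained regions, 17.6 to 20.8% of lost regions over a noncoding gene, median widths of 1800 to 2600 bp, median GC of 44.0 to 44.5% and median soft-masked shares of 27.8 to 30.0%. The flank ratio was then 1.10 to 1.26, and 333 to 422 lost regions had lower flanks. With peaks taken from the widest down to equal covered lengths (chosen after seeing the data) 4815 regions were lost and 585 gained, 1214 of the 1382 among the lost, and with peaks within 5 kb merged 746 and 1173. With at least 50% covered, 4000 were gained. Equal numbers of the widest peaks gave 1050 lost and 2118 gained. Median width was 2800 bp with peaks within 5 kb merged and 3000 bp with equal numbers. Median GC was 43.4% with peaks within 5 kb merged and 44.1% beyond 10 kb. The median soft-masked share was 27.3% with at least 50% covered, 31.4% with peaks within 5 kb merged, 27.1% beyond 10 kb and with peaks of at least 1000 bp, and 26.0% with equal numbers. Without pseudogenes 18.9% of lost regions overlapped a noncoding gene. The flank ratio turned to 0.894 and the count of lower flanks rose to 496 after scaling covered bases to equal totals, and the count was 136 without any lost region in the flanks. What lies behind these changes was not tested, except that scaling removes the difference in total covered length and that leaving out lost regions takes bases from shCTR only. Deviations of same-numbered libraries from their group means had a correlation of -0.0142 over 37026 regions. With 2 libraries per condition this cannot tell whether same-numbered libraries were paired. The replicate block cannot change which regions are lost (1382), by construction. With it the flank ratio was 1.18 and 286 had lower flanks. Lists without heights limit every value to called peaks.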

Other observations

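On chromosomes X and Y, which were left out of the set, 25 of 270 regions outside protein-coding genes were lost and 7 were gained. On chromosomes 1 to 19 the lost share of such regions was 3.73%. The sex of the embryos is not given in the sources used here.

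Regions with a peak in both shCTR libraries and 1 shPHF8 library resembled the lost regions more than the shared ones in overlap with pseudogenes and noncoding start sites. Of 2398 such regions, 3.21% overlapped a pseudogene and 5.71% a noncoding start site, where lost regions had 2.68 and 5.28% and shared regions 6.40 and 11.4%. Their median width, 3200 bp, was also nearer to that of lost (2600 bp) than of shared regions (5600 bp), and its part was not tested. Other measures lay nearer to the shared regions. Their flanks were lower in both shPHF8 libraries in 10.6%, between lost (16.9%) and shared (6.74%) regions. The median soft-masked share was 29.6%, against 27.8% in lost and 30.4% in shared regions. None of these differences was tested.

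Among the genes nearest to many lost regions were Gm26657, with 7 of 31 regions lost and 0 gained, and 2 genes with 6 lost and 1 gained each, 3100002H09Rik (of 37) and 3110018I06Rik (of 88). Sema6a, a semaphorin of axon guidance, had 4 of 23 lost, and Cbln1, a synaptic organiser of the cerebellum, 4 of 18, both with 0 gained. These genes were singled out after their counts were seen.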
